A study of Mus musculus with 8 samples.

Results

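The postsynaptic density scaffold genes examined here were *Dlg1*, *Dlg2*, *Dlg3*, *Dlg4*, *Dlgap1*, *Dlgap2*, *Shank1*, *Shank2* and *Shank3*. They were chosen by name, with earlier results of these data known, as 9 of the 38031 genes with counts. Each was read from the transcript with the lowest Ensembl number. RNA-seq was performed on the primary motor cortex (M1) of male Swiss Webster mice that had received a lentivirus at postnatal day 21 to 25 and were dissected at day 49 to 53. In 4 mice the virus carried the *Fezf2 shRNA*, a short hairpin RNA directed at the transcription factor *Fezf2*, and in the other 4 it carried a *non-silencing shRNA* as control. Both viruses placed mCherry and the hairpin under the rat *Synapsin I* promoter, which is active in neurons. M1 was cut by its mCherry fluorescence from 1 mm slices and held all layers and the meninges, so that transduced cells, untransduced neurons and glia all contributed RNA. With 4 mice per treatment in the design, a library was taken to stand for 1 mouse. In whole tissue of this kind, fewer cells of a type and less RNA per cell cannot be told apart.

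The postsynaptic density is the protein layer under the membrane of an excitatory synapse that holds glutamate receptors and their signalling enzymes in place. The *Dlg* genes encode membrane-associated guanylate kinases, whose PDZ domains bind NMDA receptor subunits and AMPA receptor auxiliary proteins. The *Dlgap* proteins bind the guanylate kinase domain of the *Dlg* proteins and, at their other end, the PDZ domain of the *Shank* proteins. The *Shank* proteins form the deeper layer and bind Homer and actin regulators.

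The hairpin sequence is shown beside the longest stretches it shares with scaffold transcripts, since short hairpins act through base pairing. The 19 bases of the sense strand were present in full in *Fezf2*, in the coding sequence across the junction of exons 4 and 5 of its transcript ENSMUST00000022262. In the scaffold genes the longest run of identical bases shared with either strand was between 7 and 10 bases. The 10-base runs were in *Dlgap1* and *Dlg2*, and 4.82% of the 55341 annotated genes searched had a run at least as long. The *Dlgap1* site lies in exon 2 of the retained-intron transcript ENSMUST00000156946, at chr17:70594403-70594421 on the plus strand of GRCm38, and the *Dlg2* site in exon 9 of the retained-intron transcript ENSMUST00000152139, at chr7:91998142-91998160 on the plus strand. Neither transcript has an annotated coding region. Capitals mark the shared run, at bases 8 to 17 of the hairpin strand counted from its 5′ end, and each site is aligned without a gap.
*Fezf2 shRNA*, sense strand: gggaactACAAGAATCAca
*Dlgap1* site: atctgtaACAAGAATCAtt
*Fezf2 shRNA*, antisense strand: tgtgattCTTGTAGTTCcc
*Dlg2* site: tgagaagCTTGTAGTTCag
Over the whole site, 10 of 19 bases matched in *Dlgap1* and 14 of 19 in *Dlg2*. Introns outside annotated transcripts were not searched.

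The 8 libraries held between 54684016 and 58003814 counts on genes, and every scaffold gene had at least 3679 normalized counts in every library, so its precision is set by the spread between mice more than by counting. *Fezf2* itself had 688, 767, 735 and 702 normalized counts in the control libraries and 621, 583, 568 and 592 in the *Fezf2 shRNA* libraries. All 4 treated libraries were below all 4 controls, with a log2 fold change of -0.29 (SE 0.076, adjusted p = 0.0765), which did not pass the threshold (adjusted p of at most 0.05 and a log2 fold change of at least 0.2 in either direction). *Fezf2* passed with DESeq2, with or without its prior (adjusted p = 0.0256 for each), and with an offset for the length of the counted interval it was at -0.18 (SE 0.0784, adjusted p = 0.453). *Fezf2 shRNA* libraries 1 and 3 stood apart from the others in *Gphn*, which encodes gephyrin, with 30612 and 40678 normalized counts against 5681 to 6751 in the other 6 libraries. Markers of oligodendrocytes summed to 1120 to 2030 counts per 1000000 (CPM) in the controls and 832 to 1365 CPM in the treated libraries. All 7 of these markers had a negative log2 fold change and none passed the threshold. Markers of microglia summed to 183 to 252 CPM in the controls and 240 to 465 CPM in the treated libraries. Of the 7 microglia markers tested 5 had a positive log2 fold change, with a median of 0.08, and none passed. Markers of excitatory neurons summed to 3387 to 3807 CPM in the controls and 3540 to 3700 CPM in the treated libraries. Of these 8 markers 3 had a positive log2 fold change, with a median of -0.05, and none passed. All 4 markers of layer 5 projection neurons, which include *Fezf2*, had a negative value, with a median of -0.21, and none passed. The part of these cell types in the results below was not tested.

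The first comparison asked whether scaffold gene counts differed between treatments. All 9 genes had a positive log2 fold change, from 0.01 to 0.57 with a median of 0.24, against a median of -0.03 over the 9959 genes tested. A positive value was found for 4318 of these 9959 genes. *Dlg2* and *Dlgap2* passed the threshold, and both rose. Across all genes tested, 2.19% passed and 2.06% passed with a rise. In 5 of the 9 genes (*Dlg1*, *Dlg2*, *Dlgap1*, *Dlgap2* and *Shank2*) all 4 treated libraries lay above all 4 controls, which held for 7.41% of all genes. An unadjusted p under 0.05 was found for 7 of the 9 scaffold genes and for 19.7% of all genes. The scaffold genes were chosen with earlier results of these data known, so these counts beside all genes are a description only.

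**Figure D1:**
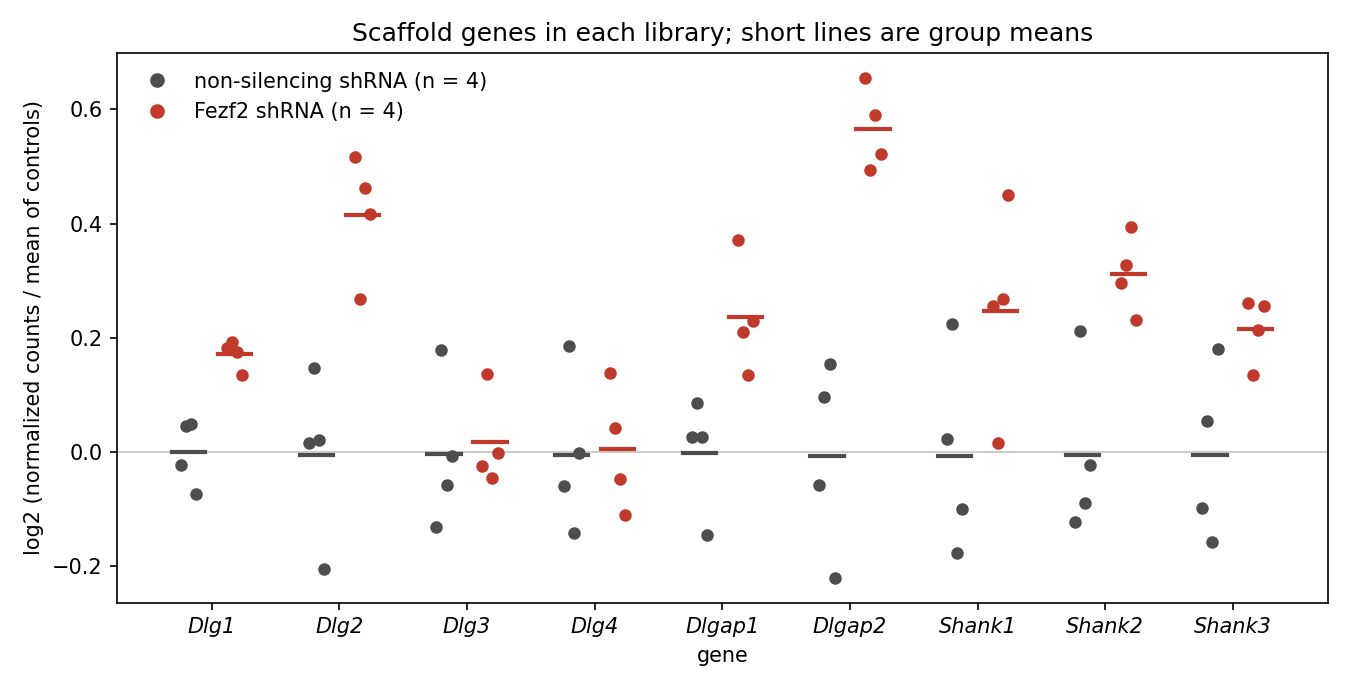
Normalized counts of each scaffold gene in each library, as the log2 ratio to the mean of the 4 controls (grey points, *non-silencing shRNA*; red points, *Fezf2 shRNA*; short lines, group means). *Dlgap2* and *Dlg2* have the widest gaps between the groups, and the groups overlap in *Dlg3*, *Dlg4*, *Shank1* and *Shank3*.

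*Dlg2*, which encodes the scaffold also called chapsyn, lies on chromosome 7 from 91090728 to 92447003 (GRCm38, plus strand, as do all the coordinates of scaffold genes here) and is the longest of the 9 genes, with 1356 kb of which 0.807% is exonic. It had 58973, 64560, 59199 and 50591 normalized counts in the control libraries and 83457, 70239, 80352 and 77836 in the treated libraries. The lowest treated library was above the highest control. The group means were 58331 ± 5770 and 77971 ± 5644 (SD, n = 4 each), and the log2 fold change was 0.42 (95% confidence interval 0.22 to 0.61, adjusted p = 0.0396).

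*Dlg1* encodes a scaffold found both at synapses and in trafficking compartments. It spans 209 kb of chromosome 16, from 31664150 to 31872684. The control libraries had 10940, 11465, 11487 and 10560 normalized counts and the treated libraries 12609, 12690, 12548 and 12203. The groups did not overlap and both were tight, with SDs of 447 and 214 (n = 4 each). The log2 fold change of 0.17 (95% confidence interval 0.05 to 0.29) did not pass the threshold (adjusted p = 0.118).

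*Dlg4* encodes the most studied scaffold of the group, the main organizer of glutamate receptors at mature spines, and *Dlg3* encodes a scaffold prominent early in synapse formation. *Dlg4* lies on chromosome 11 from 70029525 to 70045140 and was the shortest of the 9 intervals, at 15.6 kb with 57.2% of its bases exonic. It had 13535, 16050, 12781 and 14103 normalized counts in the controls and 15533, 14536, 13658 and 13064 in the treated libraries. The groups overlapped over most of their range, and the log2 fold change was 0.01 (95% confidence interval -0.17 to 0.19, adjusted p = 0.969). *Dlg3*, on chromosome X from 100767722 to 100818406, had 4960, 6149, 5221 and 5406 counts in the controls and 5343, 5975, 5265 and 5425 in the treated libraries. Its log2 fold change was 0.02 (95% confidence interval -0.15 to 0.18, adjusted p = 0.913). The sign of the *Dlg3* and *Dlg4* values depended on the normalization, and both were negative with library totals.

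*Dlgap2*, one of the linker genes between the *Dlg* and *Shank* layers, had the largest log2 fold change of the 9 genes. It spans 667 kb of chromosome 8, from 14179667 to 14847108, and 0.781% of this is exonic. The control libraries had 18213, 20288, 21111 and 16281 normalized counts and the treated libraries 29879, 26704, 28548 and 27258. Every treated library was well above every control. The means were 18973 ± 2170 and 28098 ± 1417 (SD, n = 4 each), with a log2 fold change of 0.57 (95% confidence interval 0.38 to 0.75, adjusted p = 0.0246).

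*Dlgap1*, the other linker, spans 850 kb of chromosome 17, from 69969246 to 70819724, and 1.88% of it is exonic. It had 27959, 29138, 27938 and 24801 normalized counts in the controls and 35516, 31746, 30130 and 32178 in the treated libraries. The groups did not overlap, though the lowest treated and highest control values were close. Its log2 fold change was 0.24 (95% confidence interval 0.08 to 0.40, adjusted p = 0.116).

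Among the *Shank* genes, *Shank2* had the largest log2 fold change. The transcript read here covers 137 kb of chromosome 7, from 144284545 to 144421361, which is the 3′ part of a gene of 423 kb. It had 6018, 7588, 6163 and 6454 normalized counts in the controls and 8044, 8222, 8609 and 7697 in the treated libraries, with no overlap. The log2 fold change was 0.31 (95% confidence interval 0.14 to 0.49, adjusted p = 0.0669). A gene on the other strand, *Gm14372*, lies inside this interval, and its own interval held 13.4% as many counts. Since the counts did not use strand, reads of that gene and of *Shank2* cannot be told apart there.

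*Shank1* and *Shank3* had overlapping groups. *Shank1*, on chromosome 7 from 44312707 to 44357337, had 6382, 7342, 5562 and 5865 normalized counts in the controls and 7505, 6355, 7574 and 8591 in the treated libraries. *Fezf2 shRNA* library 2 fell within the control range, and the log2 fold change was 0.26 (95% confidence interval 0.02 to 0.49, adjusted p = 0.218). *Shank3*, on chromosome 15 from 89499857 to 89560261, had 3837, 4261, 3679 and 4651 counts in the controls and 4923, 4506, 4762 and 4901 in the treated libraries. Control library 4 was above the lowest treated library, and the log2 fold change was 0.22 (95% confidence interval 0.05 to 0.39, adjusted p = 0.167).

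The single libraries did not take the same place in every gene. Control library 2 was the highest control in 6 of the 9 genes and control library 4 the lowest in 4 (*Dlg1*, *Dlg2*, *Dlgap1* and *Dlgap2*). *Fezf2 shRNA* library 1 was the highest treated library in 5 genes. The calls of *Dlg2* and *Dlgap2* depended on which single library was left out. *Dlgap2* kept its call without control libraries 2 or 3 or *Fezf2 shRNA* library 2, with adjusted p from 0.0139 to 0.0193. Without control libraries 1 and 4 in turn its adjusted p was 0.0971 and 0.0539, and without *Fezf2 shRNA* libraries 1, 3 and 4 it was 0.0668, 0.0663 and 0.0586. *Dlg2* kept its call without control library 2 or *Fezf2 shRNA* library 2 (adjusted p of 0.0248 and 0.0357). Without control libraries 1, 3 and 4 it was at 0.115, 0.0689 and 0.0907, and without *Fezf2 shRNA* libraries 1, 3 and 4 at 0.109, 0.099 and 0.0894. *Shank2* passed the threshold when control library 2, its highest control, was left out (log2 fold change 0.39, adjusted p = 0.0165). The log2 fold changes themselves moved less, from 0.36 to 0.47 for *Dlg2* and from 0.50 to 0.63 for *Dlgap2*. With *Fezf2 shRNA* libraries 2 and 4 alone as the treated group, *Dlg2* was at 0.35 and *Dlgap2* at 0.51, and neither passed with so few libraries (adjusted p of 0.39 and 0.297). With DESeq2 and its prior, *Dlg2*, *Dlgap1*, *Dlgap2* and *Shank2* passed, 4 of 9 genes, against 7.37% of all genes.

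**Figure D2:**
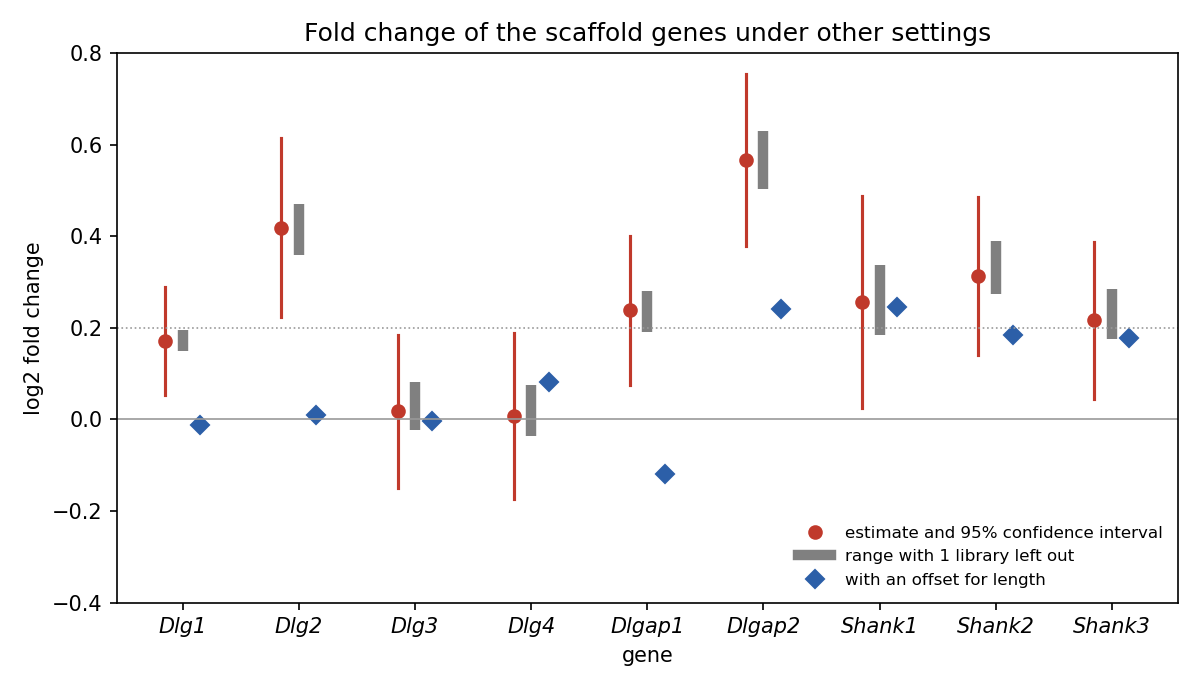
Log2 fold change of each scaffold gene (red points, with 95% confidence intervals), its range when each of the 8 libraries was left out in turn (grey bars), and its value with an offset for the length of the counted interval (blue diamonds). The dotted line marks 0.2. The grey bars stay above 0 for all genes but *Dlg3* and *Dlg4*, and the diamonds of *Dlg1*, *Dlg2*, *Dlg3* and *Dlgap1* lie near or below 0.

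Members of a family were also set against each other within each library, as the log2 ratio of 2 genes, in 10 pairs and with unadjusted two-sided exact permutation tests, which cannot go below p = 0.0286 with 4 libraries against 4. *Dlg2* relative to *Dlg4* was at 1.84 to 2.21 in the controls and 2.27 to 2.57 in the treated libraries, without overlap, a difference of 0.41 (exact p = 0.0286). *Dlgap2* relative to *Dlgap1* was at -0.62 to -0.40 in the controls and -0.25 to -0.08 in the treated libraries, a difference of 0.33 (exact p = 0.0286). These ratios carry no correction for length. With the length offset described below, *Dlg2* and *Dlg4* were at 0.01 and 0.08, so that *Dlg2* no longer had the larger fold change, and *Dlgap2* and *Dlgap1* were at 0.24 and -0.12. *Dlg2* relative to *Dlg1* and to *Dlg3* differed by 0.25 and 0.40 with overlapping groups (exact p = 0.0571 for each). The 3 *Shank* pairs differed by 0.03 to 0.10, with exact p from 0.371 to 0.80, and *Dlg3* relative to *Dlg4* by 0.01 (exact p = 0.771).

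Levels between genes were compared as CPM per kb of the counted interval. *Dlg4* was the highest in the controls, at 16.1 ± 1.59 (SD, n = 4), followed by *Shank1* at 2.5 ± 0.311, *Dlg3* at 1.9 ± 0.179 and *Shank3* at 1.21 ± 0.129. None of these overlapped with its neighbour in either group. *Dlg1* (0.947 ± 0.0381), *Shank2* (0.851 ± 0.0924) and *Dlg2* (0.764 ± 0.0756) followed, and in this order each overlapped with the next. *Dlgap1* (0.573 ± 0.0388) and *Dlgap2* (0.505 ± 0.0577) were the lowest and overlapped. These values include introns, so a gene with long introns is low on this scale whatever its messenger RNA level.

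The fold changes of the scaffold genes were then set beside the length of the intervals over which their reads were counted. The 5 genes without overlap between the treatments were the 5 longest, at 137 to 1356 kb, and Spearman's rho between length and log2 fold change was 0.63 over the 9 genes and 0.60 over the 9959 genes tested, as a description across genes of the same libraries. Over all genes the median log2 fold change was -0.12 under 10 kb, -0.07 from 10 to 30 kb, 0.01 from 30 to 100 kb, 0.15 from 100 to 300 kb and 0.29 over 300 kb. Of the genes over 300 kb, 24.6% passed the threshold with a rise. *Dlgap2* (0.57) and *Dlg2* (0.42) were above the median of their class and *Dlgap1* (0.24) below it. By its counted interval *Shank2* (0.31) was above the median of the class from 100 to 300 kb, and *Dlg1* (0.17) was near it. The widest *Shank2* interval, of 423 kb, had a log2 fold change of 0.30, close to the median over 300 kb. *Shank1* (0.26) and *Shank3* (0.22) were above the median of the class from 30 to 100 kb, and *Dlg3* (0.02) was at it.

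**Figure D3:**
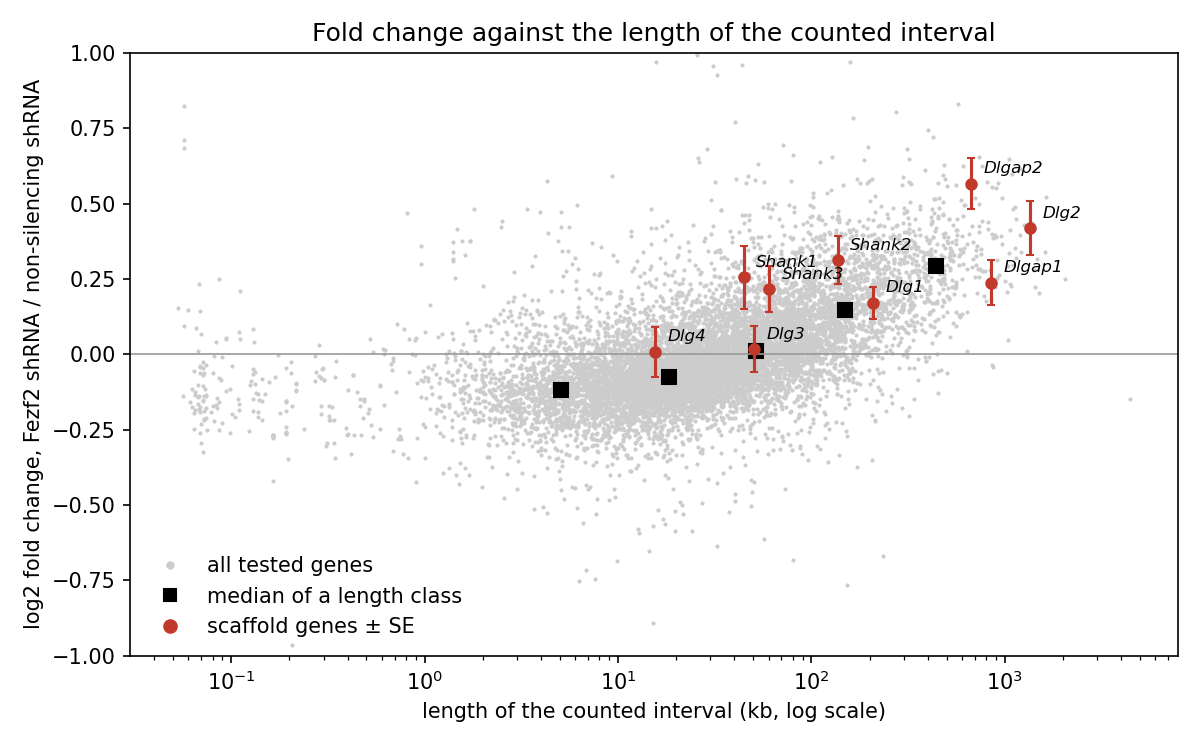
Log2 fold change of every gene tested (grey) against the length of its counted interval on a log scale, with the median of each of 5 length classes (black squares) and the scaffold genes with their SE (red). The medians climb from -0.12 to 0.29, *Dlg4* and *Dlg3* sit near 0 at the short end and *Dlgap2* and *Dlg2* at the top of the long end; 18 genes lie outside the vertical range.

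A fit with an offset for length in each library, which removes the trend over all genes, left no scaffold gene past the threshold, and 0.0201% of all genes passed. The median of the 9 genes was then 0.08. *Dlg2* was at 0.01 (SE 0.0541, adjusted p = 0.972), *Dlg1* at -0.01 (SE 0.0496, adjusted p = 0.955) and *Dlgap1* at -0.12 (SE 0.058, adjusted p = 0.511). *Dlgap2* was at 0.24 (SE 0.0555, adjusted p = 0.188), the smallest adjusted p of the 9. *Shank1*, *Shank2* and *Shank3* were at 0.24, 0.18 and 0.18, with adjusted p from 0.384 to 0.408, and *Dlg3* and *Dlg4* at 0.00 and 0.08. The *Shank2* value depended on the interval read. In a fit of all annotated transcripts with the offset, its 137-kb interval was at 0.15 and its 423-kb interval at 0.01. The offset thus brought the long *Dlg* genes to about 0 and lowered *Dlgap2* from 0.57 to 0.24, while *Shank1* and *Shank3* moved little. The offset takes the trend out whatever its source, which was not tested.

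The counts exist for each annotated transcript, so the same comparison was made along the genes. Of the 89 transcripts of the 9 genes, 84 were tested, and 22 passed the threshold, all with a rise, against 5.38% of all 32204 transcript intervals. Transcripts of a gene overlap and share reads, so they are not separate observations. *Dlgap2* had 8 of 8 tested intervals past the threshold, *Dlg2* 7 of 10, *Shank2* 4 of 4, *Dlgap1* 2 of 16 and *Dlg1* 1 of 15. None of the intervals of *Dlg3*, *Dlg4*, *Shank1* or *Shank3* passed. With the length offset no interval of the 9 genes passed, and 30 of all 32204 transcript intervals did.

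In *Dlg1*, *Dlgap1* and *Dlgap2*, the intervals at the 3′ end had smaller values than those farther upstream. In *Dlg1* an interval of 89522 bases, from 31684266 to 31773787, had 1769, 1886, 1899 and 1627 normalized counts in the controls and 2351, 2347, 2417 and 2136 in the treated libraries, a log2 fold change of 0.37 (SE 0.0723, adjusted p = 0.0202). At the 3′ end of the same gene an interval of 4367 bases had 523, 601, 534 and 550 counts in the controls and 576, 564, 567 and 508 in the treated libraries, a log2 fold change of 0.01 (adjusted p = 0.98). The groups were apart in the first and mixed in the second. In *Dlgap1* the first 111652 bases, an interval called a retained intron, were at 0.47 (SE 0.129, adjusted p = 0.0607), and the interval of 299274 bases that reaches the 3′ end was at 0.16 (SE 0.059, adjusted p = 0.144). In *Dlgap2* an inner interval of 125977 bases was at 0.64 (adjusted p = 0.0158) and the last 69626 bases at 0.39 (adjusted p = 0.0158). The upstream and 3′ intervals were 3.23% and 14.1% exonic in *Dlg1*, 2.74% and 3.72% in *Dlgap1* and 1.02% and 3.48% in *Dlgap2*. With the length offset they were at 0.25 and 0.11, 0.33 and -0.09, and 0.49 and 0.30. Position, length and exonic share cannot be told apart here. *Shank2* had about the same value, from 0.29 to 0.31, in its 4 intervals, which all share the 3′ part. The intervals of *Dlg4* ranged from -0.03 to 0.05 and those of *Dlg3* from -0.01 to 0.02. The upper end in *Dlg4* was ENSMUST00000123687, an interval that held fewer reads than intervals nested in it, and the next highest was at 0.03.

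**Figure D4:**
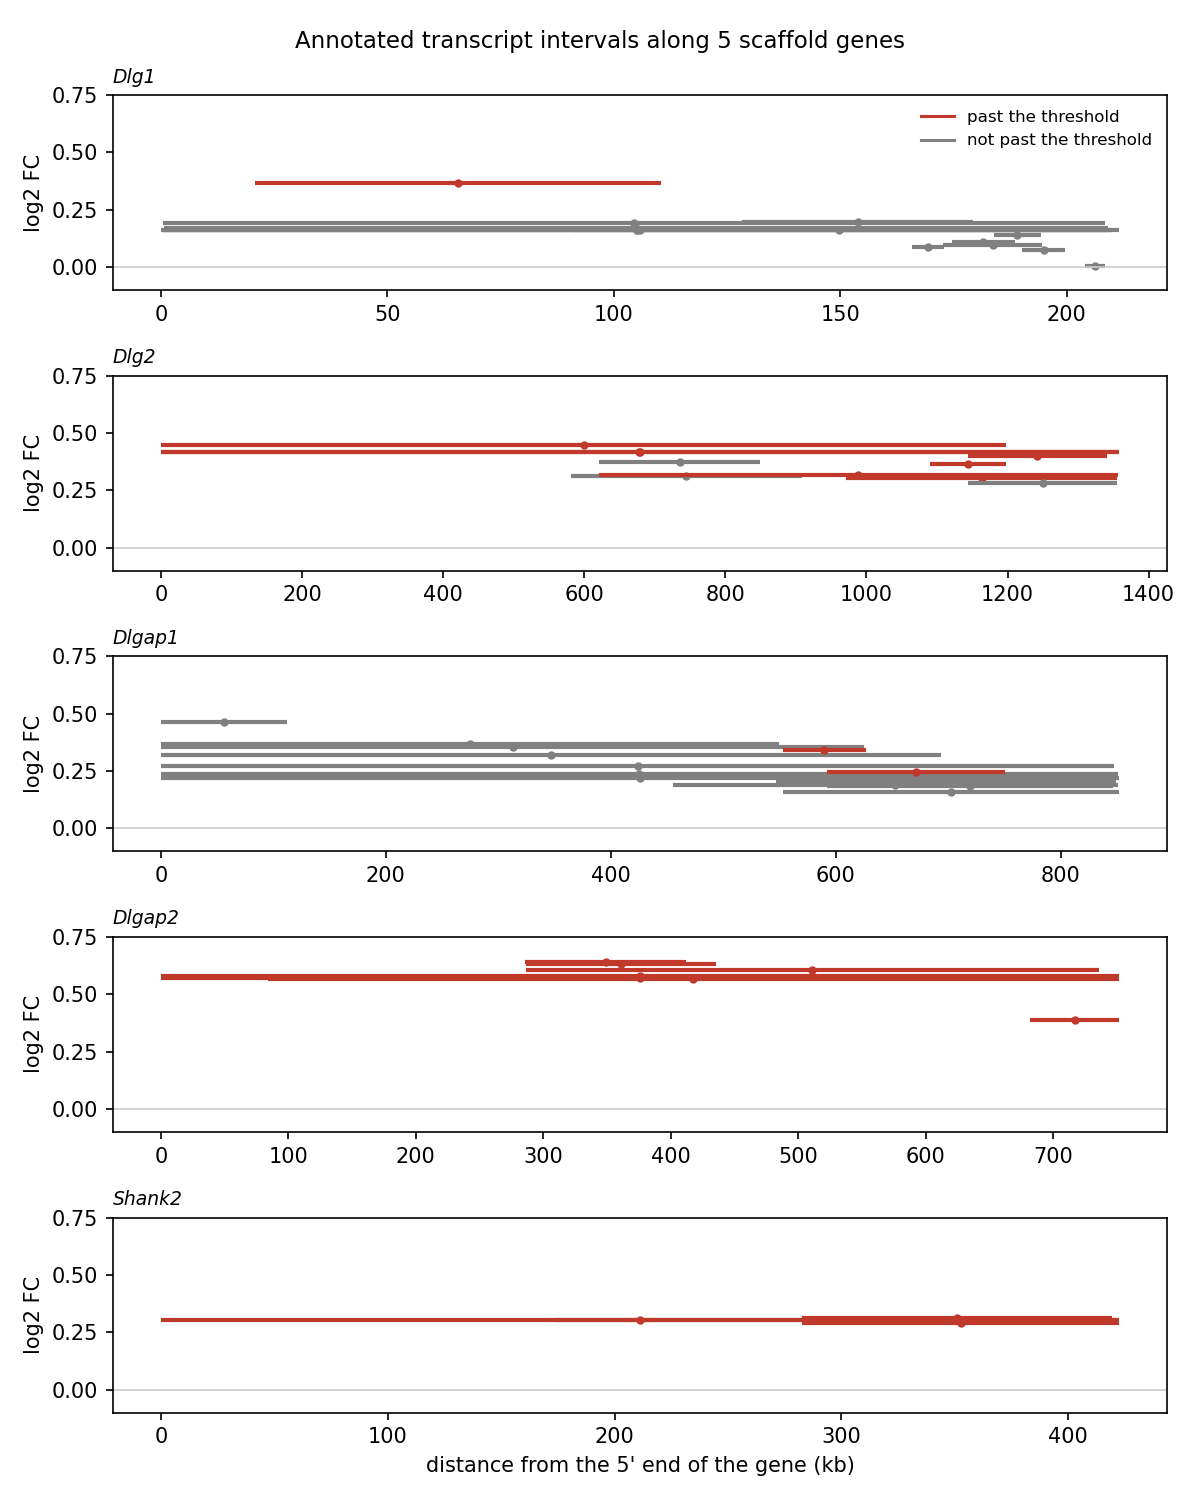
Log2 fold change of each tested transcript interval of *Dlg1*, *Dlg2*, *Dlgap1*, *Dlgap2* and *Shank2*, drawn over its extent as distance in kb from the 5′ end of the gene (red, past the threshold; grey, not past it; the point marks the middle). In *Dlg1* and *Dlgap1* the intervals confined to the 5′ side lie above those at the 3′ end (0.37 against 0.01 in *Dlg1*).

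For 4 genes the first part could be separated from the rest by subtracting the counts of nested intervals, a comparison added after the data were seen. The first 621 kb of *Dlg2*, of which 0.152% is exonic, had 35092, 39513, 36071 and 30043 normalized counts in the controls and 53306, 44030, 50396 and 48795 in the treated libraries, a log2 difference of 0.49. The rest of *Dlg2* had 23882, 25047, 23128 and 20548 in the controls and 30151, 26209, 29956 and 29041 in the treated libraries, a difference of 0.32. Both parts were higher in every treated library, and the log2 ratio of first part to rest was 0.55 to 0.66 in the controls and 0.75 to 0.82 in the treated libraries, without overlap (difference 0.17, exact permutation p = 0.0286). A ratio without overlap and higher after treatment was found for 14.9% of the 502 genes that could be divided in this way. The other 3 genes had differences in the same direction with overlapping groups, of 0.19 in *Dlgap1* (exact p = 0.257), 0.19 in *Dlgap2* (exact p = 0.429) and 0.11 in *Shank2* (exact p = 0.543). Their first parts were 1.22%, 0.431% and 0.909% exonic, and their rests 3.72%, 0.781% and 5.86%. The rest of *Dlg2* was 1.36% exonic. Position in the gene and exonic share thus cannot be told apart.

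Reads in introns come from unspliced RNA or carried-over DNA and reads in exons mostly from mature messenger RNA. Largely intronic and largely exonic parts were therefore compared next. A part was called intronic by its share of bases (at most 5% exonic), and reads on the exons inside it were not separated. The ratios of parts thus do not set intronic reads alone against exonic reads. In *Dlgap1*, a 296-kb part with 2.71% exonic bases had 16329, 17021, 17075 and 15585 normalized counts in the controls and 19761, 19066, 18789 and 18777 in the treated libraries, a log2 difference of 0.21. The untranslated 3′ end of *Dlgap1*, an exonic part of 3133 bases of which nearly all lie at 70818303 to 70821409, had 5024, 4995, 4647 and 4592 in the controls and 4794, 4955, 4554 and 4575 in the treated libraries, a difference of -0.03 (exact permutation p = 0.514). The intronic part was higher in every treated library, and the exonic part was mixed. The log2 ratio of the parts was 1.70 to 1.88 in the controls and 1.94 to 2.04 in the treated libraries, a difference of 0.24 (exact p = 0.0286).

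*Shank2* and *Dlgap2* could be divided in the same way. The intronic part of *Shank2* differed by 0.32 (exact p = 0.0286), without overlap. Its exonic 3′ part of 3227 bases had 1019, 950, 786 and 971 normalized counts in the controls and 1022, 1145, 1005 and 928 in the treated libraries, a difference of 0.14 with overlap (exact p = 0.257), and the ratio of the parts differed by 0.18 (exact p = 0.20). In *Dlgap2* the intronic part differed by 0.58 (exact p = 0.0286), and the last 400 bases, all exonic, had 199, 260, 182 and 196 counts in the controls and 288, 257, 182 and 198 in the treated libraries. The exonic part of *Dlgap2* differed by 0.13 with overlap (exact p = 0.571) and the ratio by 0.44 with overlap (exact p = 0.0857). Over the 645 genes that could be divided, the ratio was higher on average in the treated libraries in 85.7%, and the groups did not overlap, with a higher ratio after treatment, in 15.3%. The median ratio of these genes was 0.96 to 1.08 in the control libraries and 1.13 to 1.25 in the treated libraries, and the median difference was 0.20, close to the 0.24 of *Dlgap1*.

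**Figure D5:**
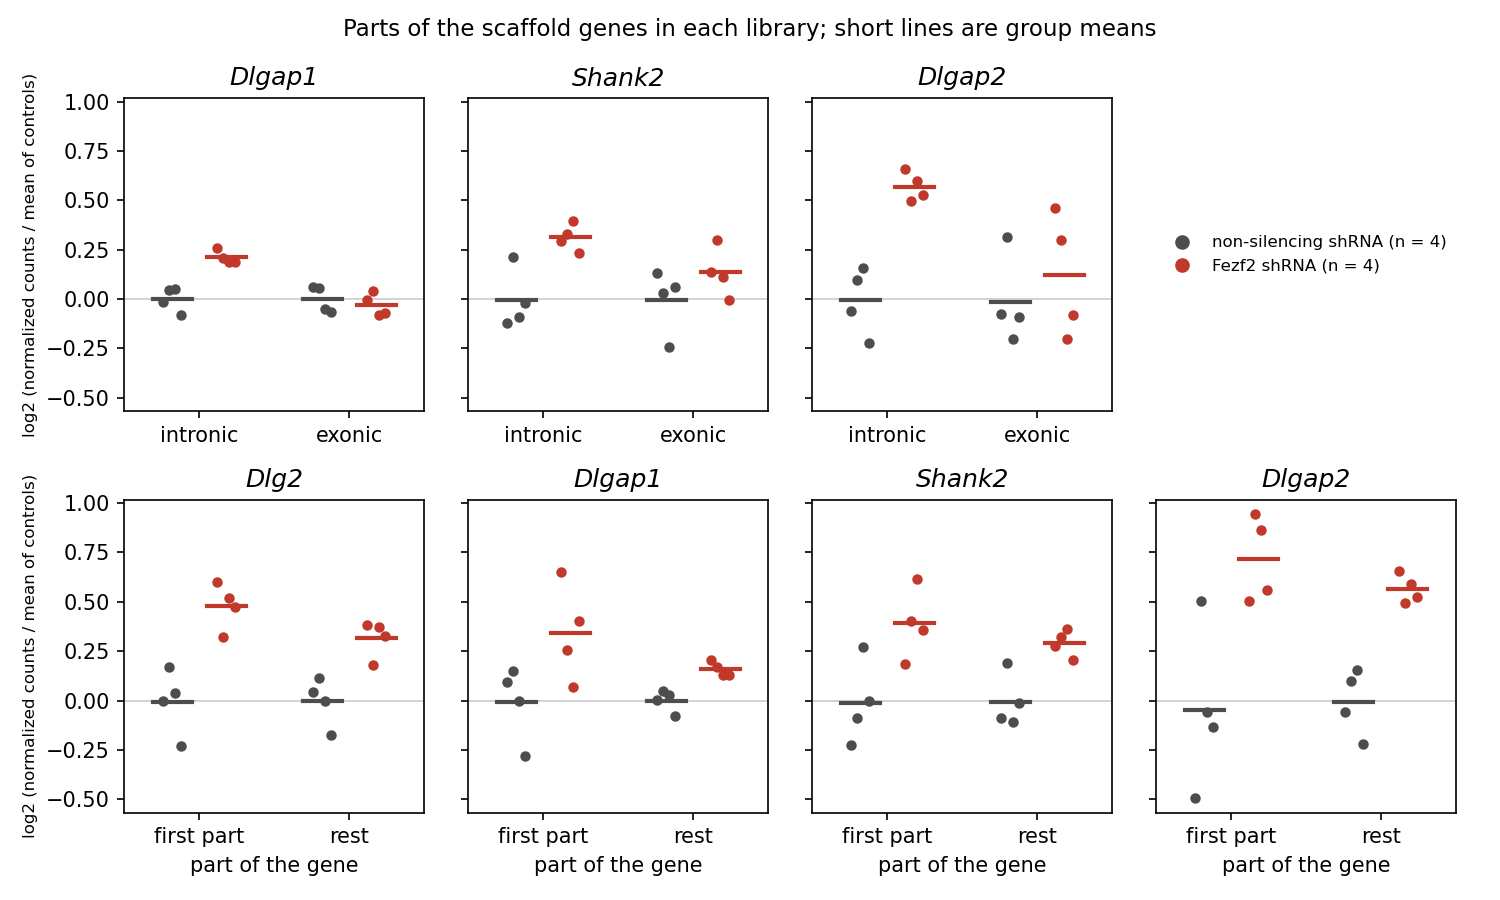
Normalized counts of parts of the scaffold genes in each library, as the log2 ratio to the mean of the controls for that part (grey, *non-silencing shRNA*; red, *Fezf2 shRNA*; short lines, group means; upper panels, parts called intronic and exonic by their share of bases; lower panels, first part and rest). The intronic part of *Dlgap1* is separate between groups (0.21) and its exonic part is not (-0.03); both parts of *Dlg2* are separate.

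An interval at least 80% exonic as annotated, without subtraction, existed for 1 scaffold gene. In *Shank1* the interval of 1296 bases, 84.7% exonic, had 654, 745, 607 and 691 normalized counts in the controls and 781, 682, 669 and 857 in the treated libraries, a difference of 0.14. The rest of *Shank1*, of which 19.2% is exonic, differed by 0.26, and the ratio by 0.12 with overlap (exact p = 0.257). Of the 673 genes with such an interval, 4.16% had ratios without overlap and higher after treatment. With intervals at least 50% exonic, *Dlg4* and *Shank3* could be added, and the ratio differed by 0.04 in *Dlg4* (exact p = 0.40) and 0.03 in *Shank3* (exact p = 0.514). The rest was 38.6% exonic in *Dlg4* and 14.0% in *Shank3*. In all 3 genes the rest thus holds exons, and the ratio does not set introns alone against exons. Groups without overlap and a higher ratio after treatment were found in 4.68% of genes at this limit, and in none of the 3 scaffold genes.

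Other genes of the synapse were counted by role, in lists of which 81 genes were tested and 4 passed the threshold, all with a rise. Over all genes tested, 2.06% passed with a rise and 4318 of 9959 had a positive value. The lists too were chosen with earlier results of these data known. Among other excitatory scaffolds and adaptors 3 of 32 passed and 22 of 32 had a positive value, with a median of 0.07. *Grip1*, whose product binds AMPA receptor subunits, had a log2 fold change of 0.50 (SE 0.0629, adjusted p = 0.0123). *Lrrc7*, which encodes densin, a partner of CaMKII, was at 0.36 (adjusted p = 0.0304), and *Anks1b*, an adaptor that binds the *Dlg4* product, at 0.39 (adjusted p = 0.0442). These 3 genes span 393 to 623 kb, and with the length offset they were at 0.18, 0.07 and 0.12.

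Among receptors and adhesion partners of the scaffolds 1 of 20 passed and 16 of 20 were positive, with a median of 0.18. *Nlgn1*, the neuroligin of excitatory synapses whose tail binds the *Dlg* proteins, had 34286, 34247, 36890 and 30652 normalized counts in the controls and 54117, 43515, 48025 and 49092 in the treated libraries. The groups did not overlap, and the log2 fold change was 0.52 (SE 0.0831, adjusted p = 0.0272), with 0.18 under the length offset. *Gria4*, an AMPA receptor subunit, was at 0.32 (adjusted p = 0.0573), and *Cacng3*, an auxiliary subunit that the *Dlg* proteins bind, at 0.45 (adjusted p = 0.0599). None of the 23 postsynaptic signalling enzymes passed (17 positive, median 0.11), the smallest p being those of *Tnik* (0.22, adjusted p = 0.099), *Fyn* (0.21, adjusted p = 0.102) and *Kalrn* (0.22, adjusted p = 0.167). Of 6 genes of inhibitory postsynapses none passed and 4 were positive. *Gphn* had the largest value there, 1.80 (adjusted p = 0.101), carried by *Fezf2 shRNA* libraries 1 and 3, and *Iqsec3* was at 0.15 (adjusted p = 0.48). The median of the scaffold genes (0.24) was above the medians of all 4 lists (0.06 to 0.18), and so was the median length of their intervals, at 137 kb against 64.0 to 125 kb.

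Over the 8 libraries, the genes whose log2 CPM most resembled that of *Dlg2* were *Lrrc7* (Pearson's r = 0.994), *Atxn1* (0.994) and *Opcml* (0.988), as a description over libraries that include both treatments. These 3 genes span 415 to 517 kb and had log2 fold changes of 0.36, 0.26 and 0.45. Those most like *Dlg4* were *Creg2* (r = 0.954), *Slitrk5* (0.927) and *Fjx1* (0.921), which span 3.13 to 33.1 kb and had log2 fold changes of -0.01, 0.00 and 0.02. The genes most like *Dlg2* were all over 300 kb, as were 407 of the 9959 genes tested. Those most like *Dlg4* were all under 100 kb, as are most genes tested, whose median length was 28.5 kb.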

How the data were processed

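Total RNA libraries (TruSeq kit) of 8 M1 samples were used. Per the labels, reads were aligned to mm10 with TopHat2 2.1.1, and the deposited counts are raw reads that the authors counted with BEDTools 2.26.0 multiCov over the genomic interval of each Ensembl transcript, so introns are counted and overlapping transcripts share reads. The *Dlg4* interval ENSMUST00000123687 goes against this reading, since it held fewer reads than intervals nested in it, and it was left out of the subtraction. Strand was not used, as 14 pairs of transcripts on opposite strands with ends within 200 bases had nearly equal counts (lowest ratio 0.914). Whether spliced reads that pass over an interval count is not given in the sources used here. A second deposited table holds the authors' own DESeq2 comparison and was not used.

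Transcripts were matched to GENCODE M21 (91320 of 94647, with 1.82% of counts unmatched). Genes above 8 counts per 1000000 (CPM) in 4 or more libraries were tested by the quasi-likelihood method of edgeR 4.0.16 under R 4.3.3, with TMM scaling, treatment as the only term and Benjamini-Hochberg adjusted p-values, and with DESeq2 1.42.0 as an alternative. The study used DESeq2. Normalized counts were scaled by TMM to the average effective library size. Whether each library came from its own animal is not stated per sample, and p-values measure the spread between these samples. Parts of genes were nested intervals subtracted from each other, with at least 100 reads on average, at most 5% exonic for intronic parts and at least 80% for exonic parts, and tested by exact permutation of the 8 libraries. The length offset was a loess (span 0.3) per library. Tests were checked on simulated data. Figures and tables used Python 3.11.15, pandas 2.3.3 and scipy 1.17.1.

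The members and lists were chosen with earlier results of these data known. Named genes were all 9 members, *Fezf2*, in each list the 3 of smallest p with any others past the threshold, and the 3 genes most like *Dlg2* and *Dlg4*. *Gm14372* was named after its values were seen. A gene that the rule names is not reported here but stays in the counts and medians of its list. Alternatives were other normalizations, filters, thresholds and transcripts, a replicate block, the length offset and leaving out each library, and, added after seeing the data, *Fezf2 shRNA* libraries 2 and 4 alone, subtracted intervals and ratios of family members.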

Additional observations from a re-analysis of the deposited data

Results flagged for a closer look

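Among the scaffold genes, *Fezf2* and the named synaptic genes, 44 groups of 4 libraries were examined for a single library far from the rest, and chance would flag about 1 in 20. One was found. *Gria4*, an AMPA receptor subunit bound indirectly by the *Dlg* scaffolds, had 11909 normalized counts in control library 4 against 13601 to 13777 in the other controls. No group of any scaffold gene was flagged.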

How the results depend on the processing

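The number of scaffold genes past the threshold was 2 and stayed at 2 with the other normalizations, the widest transcript and no minimum fold change. It was 1 with a filter of more than 1 CPM, with no filter and with the replicate block, 4 with DESeq2 with or without its prior, and 0 with the length offset, with both block and offset, and with *Fezf2 shRNA* libraries 2 and 4 alone. Leaving out single libraries gave 0 to 3. The count over all genes was 218 in the main fit and with no minimum fold change. It was 155 to 243 with the other normalizations and 230 with the widest transcript. In the remaining settings, in order, it was 111, 85 and 89, then 752 without and 734 with the prior, then 2, 2 and 1. It was 0 to 401 with single libraries left out. The other synaptic genes past the threshold numbered 4 in the main fit and with no minimum fold change. They numbered 4 or 5 with the other normalizations and 3 with the widest transcript. In the remaining settings, in order, they numbered 2, 2 and 2, then 15 and 14, then 0, 0 and 0. They numbered 0 to 11 with single libraries left out. The transcript intervals of the scaffold genes went from 22 to 0 with the offset and 0 with block and offset, and 1 to 29 with single libraries left out. Over all transcript intervals the count went from 1732 to 30 and 35, and 73 to 2493 with single libraries left out. The correlations of same-numbered libraries, as deviations from their group means, were 0.31, 0.09, -0.13 and 0.17. The highest with any other number were -0.04, 0.27, 0.17 and 0.10, so whether the replicate numbers pair the mice is undecided. Under the replicate block the adjusted p was 0.0741 for *Dlg2* and 0.0427 for *Dlgap2*.

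In *Shank1*, the ratio of the rest of the gene (19.2% exonic) to its exonic interval differed by 0.12. This difference was 0.05 to 0.16 when single libraries were left out. In *Dlgap2*, the ratio of the subtracted intronic and exonic parts differed by 0.44. Values that changed sign were *Dlg1* at -0.0128 and *Dlgap1* at -0.12 with the offset (-0.0136 and -0.12 with block and offset together), and *Dlg3* and *Dlg4*, all close to 0. *Dlg3* was at -0.00867 with library totals, -0.0026 with the offset, -0.00092 with block and offset, and -0.0237 to 0.0822 with single libraries left out. *Dlg4* was at -0.0184 with library totals, -0.0314 with *Fezf2 shRNA* libraries 2 and 4 alone and -0.0373 to 0.0752 with single libraries left out. Of 189 alternative values of the scaffold genes, 149 kept direction and side of the threshold, 20 lost the call, 5 gained one and 15 changed sign. The cause of these changes was not tested. A wider filter adjusts over more genes, and leaving out libraries lowers the number compared, but the part of either in these changes was not tested. The exonic part of *Dlgap2* rests on 182 to 288 counts per library.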
